A study of Mus musculus with 6 samples.

Results

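The chromatin remodellers described here are 10 genes that encode subunits of the BAF complex (*Smarca4*, *Smarca2*, *Smarcb1*, *Smarcc1*, *Smarcc2*, *Smarcd1*, *Smarce1*, *Arid1a* and *Arid1b*) and the Mi-2β ATPase of the NuRD complex (*Chd4*). They were taken by gene symbol from the 23183 symbols in the expression tables, where all 10 were present. Double positive (DP) thymocytes, immature T cells that carry CD4 and CD8, were sorted from the thymus of C57BL/6 mice at 6 weeks of age, and poly(A)-enriched RNA was sequenced in 3 libraries per genotype. WT libraries came from *Nsrp1* f/f mice, and NSrp70-cKO (cKO) libraries from *Nsrp1* f/f mice that also carry CD4Cre, so both groups share the floxed *Nsrp1* allele and only the cKO group carries Cre. Cre driven by CD4 regulatory elements starts late in the double negative stage, before the DP stage, and effects of Cre and of the lost *Nsrp1* cannot be told apart with these groups. The labels do not say that the libraries of a genotype came from separate mice, so p-values measure the spread between libraries, which may be technical. The comparison asked how the transcript level of each remodeller gene differed between cKO and WT DP thymocytes.

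Both complexes use the energy of ATP to slide or eject nucleosomes and so open or close DNA for transcription factors. BAF is built around one ATPase, either SMARCA4 (BRG1) or SMARCA2 (BRM), on a scaffold of SMARCC, SMARCD, SMARCB1 and SMARCE1 subunits, and ARID1A or ARID1B marks its canonical form. NuRD joins the CHD4 ATPase to the deacetylases HDAC1 and HDAC2. In the thymus, BRG1 is needed for double negative cells to reach the DP stage, BAF containing SMARCE1 acts at the *Cd4* silencer, and Mi-2β supports *Cd4* transcription.

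The promoter windows of these genes lie in CpG-rich DNA. RefSeq promoter windows of 300 bases on GRCm38.p6 run from 250 bases before to 50 after a RefSeq start. They were found for 9 of the 10 genes, and none for *Smarce1*. The windows of *Smarcc1* (chr9:110131774-110132073) and *Arid1b* (chr17:4994824-4995123) begin past the gene starts given further on and do not cover them. All 9 held more CG dinucleotides than the median of 7 over 32851 windows, with counts from 17 (*Chd4*) to 48 (*Smarcc2*). The sequences of 4 are shown because they belong to both main ATPases, to the gene with the largest fall and to the gene that was not called. Capitals mark the GC box GGGCGG, the ETS core CCGGAAG and the NRF1 core CGCATGCG on either strand, and no matches of different motifs overlapped in these 4 windows.
*Smarca4*, the BRG1 ATPase, chr9:21615919-21616218, + strand: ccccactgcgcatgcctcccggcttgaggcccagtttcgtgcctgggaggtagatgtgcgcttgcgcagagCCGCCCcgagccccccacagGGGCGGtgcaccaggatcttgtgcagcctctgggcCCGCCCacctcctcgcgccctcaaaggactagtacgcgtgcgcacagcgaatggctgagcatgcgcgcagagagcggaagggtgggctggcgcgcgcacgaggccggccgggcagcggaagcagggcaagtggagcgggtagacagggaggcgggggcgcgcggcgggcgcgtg
*Chd4*, the Mi-2β ATPase, chr6:125095731-125096030, + strand: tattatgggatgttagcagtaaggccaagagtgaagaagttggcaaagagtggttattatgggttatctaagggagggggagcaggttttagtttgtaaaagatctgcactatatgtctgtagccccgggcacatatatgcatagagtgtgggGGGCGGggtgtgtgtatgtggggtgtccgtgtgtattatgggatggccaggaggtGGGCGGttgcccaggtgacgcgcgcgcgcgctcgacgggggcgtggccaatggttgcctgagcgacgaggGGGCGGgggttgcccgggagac
*Smarcd1*, the largest fall, chr15:99702037-99702336, + strand: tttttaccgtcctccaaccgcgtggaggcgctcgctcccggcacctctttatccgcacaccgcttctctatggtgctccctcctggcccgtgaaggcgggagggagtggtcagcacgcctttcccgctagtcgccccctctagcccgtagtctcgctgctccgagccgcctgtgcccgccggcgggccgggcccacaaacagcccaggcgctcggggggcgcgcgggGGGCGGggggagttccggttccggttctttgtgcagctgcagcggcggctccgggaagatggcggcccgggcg
*Smarcb1*, not called, chr10:75921565-75921864, - strand: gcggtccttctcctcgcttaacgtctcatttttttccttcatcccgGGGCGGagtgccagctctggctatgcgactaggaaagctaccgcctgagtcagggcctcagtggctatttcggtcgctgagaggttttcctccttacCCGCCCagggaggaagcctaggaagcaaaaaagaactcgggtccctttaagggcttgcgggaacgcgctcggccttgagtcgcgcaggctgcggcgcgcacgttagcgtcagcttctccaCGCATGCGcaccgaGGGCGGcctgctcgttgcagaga
A GC box was present in 9 of the 9 windows, against 35.7% of all windows of this length. The 9 windows held 57.0% (*Chd4*) to 81.0% (*Smarcc2*) GC, above the median of 52.7% over all windows. The part of GC content in the GC box count was not tested. The ETS core was present in 2 windows (*Smarca2* and *Smarcc1*, 8.86% of all windows) and the NRF1 core in 2 (*Smarcb1* and *Smarcc1*, 1.87% of all windows). The windows of the genes that fell and of *Smarcb1*, which was not called, thus shared the GC box.

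Expression was given as FPKM (fragments per kilobase of transcript per mega (M) mapped fragments), computed by the authors, and differences were tested with limma on log2(FPKM + 1). Genes entered the test if 3 or more libraries reached an FPKM of 1, which 10326 genes including all 10 remodellers did, and were called at a Benjamini-Hochberg adjusted p under 0.05. Fold changes below are on this scale, where the added 1 shrinks differences between low values.

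Several features of the libraries bear on every value below. The WT libraries differed from each other by 1.47 to 1.58 times counting noise and the cKO libraries by 32.3 to 72.9 times, over 710 to 793 single-transcript genes a pair. WT values are therefore given per library with no SD, and tests were run again on their average as 1 WT sample. Mapped depth, estimated from the steps of 1 fragment at low values, was 20.7 to 20.8 M fragments in WT and 13.1, 20.6 and 17.5 M in cKO 1, 2 and 3. FPKM totals were 521296 to 531517 in WT and 701396 to 850548 in cKO. *Nsrp1*, listed as *Ccdc55*, reached FPKM values of 20.2, 20.7 and 21.1 in WT and of 17.7, 15.8 and 15.0 in cKO, a value over the whole gene and not over its deleted part alone. *Xist* and 4 genes of chromosome Y separated the groups, with *Xist* at 69.8 to 72.0 in WT and 4.07 to 5.44 in cKO and *Ddx3y* at 0 in all WT libraries and 26.2 to 35.0 in cKO, so sex and genotype cannot be told apart.

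The DP label was checked against markers. *Cd4* and *Cd8a* were abundant in every library, at 486, 487 and 486 and at 680, 688 and 687 FPKM in WT, and at 723, 566 and 650 and at 1163, 1003 and 1138 in cKO, and 9 DP markers summed to 4525 to 4563 in WT and 5679 to 7320 in cKO. Markers of double negative cells summed to at most 9.75 in WT and 8.80 in cKO. Of 10 cycling genes, 10 lay higher in all cKO than in all WT libraries, with a summed FPKM of 1030 to 1040 in WT and 2081 to 2351 in cKO. Of 7 genes of mature single-positive cells, 6 lay lower in all cKO than in all WT libraries, with sums of 164 to 166 and 135 to 150. Summed B cell markers were 22.8 to 24.2 in WT and 26.6 to 39.4 in cKO, almost all from *Cd79b*. The myeloid and dendritic sums were 6.13 to 8.01 and 5.15 to 7.34, and the epithelial and stromal sums 3.59 to 4.12 and 1.95 to 3.72, with *Foxn1* and *Krt5* at 0 in all 6 libraries. Erythroid markers summed to 0.588 to 1.06 in WT and 3.49 to 10.9 in cKO, mostly *Hba-a1*, with *Hbb-bs* at no more than 0.00425 in any library. The part of these cell populations in the results below was not tested, and in bulk libraries fewer cells of a type and less RNA per cell cannot be told apart.

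Transcripts of 8 of the 10 remodellers fell in cKO DP thymocytes, 1 rose (*Smarce1*) and 1 was not called (*Smarcb1*). Over all tested genes 29.8% were called lower and 35.8% higher. The median log2 fold change of the 10 genes was -0.67, against 0.039 over all tested genes. For the same 8 genes every cKO library lay below every WT library, which 33.3% of tested genes did, and for *Smarce1* every cKO library lay above, which 39.2% did. With WT averaged into 1 sample, 2 genes were called lower (*Smarcd1* and *Arid1a*) and 0 higher, where the shares over all tested genes were 8.73% and 7.21%. The same FPKM total in each library moved the median of all tested genes to -0.45 and gave 9 members lower and 0 higher, against 59.9% and 8.74% of all genes. Quantile normalization gave 9 lower and 1 higher, against 29.9% and 33.3%.

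**Figure D1:**
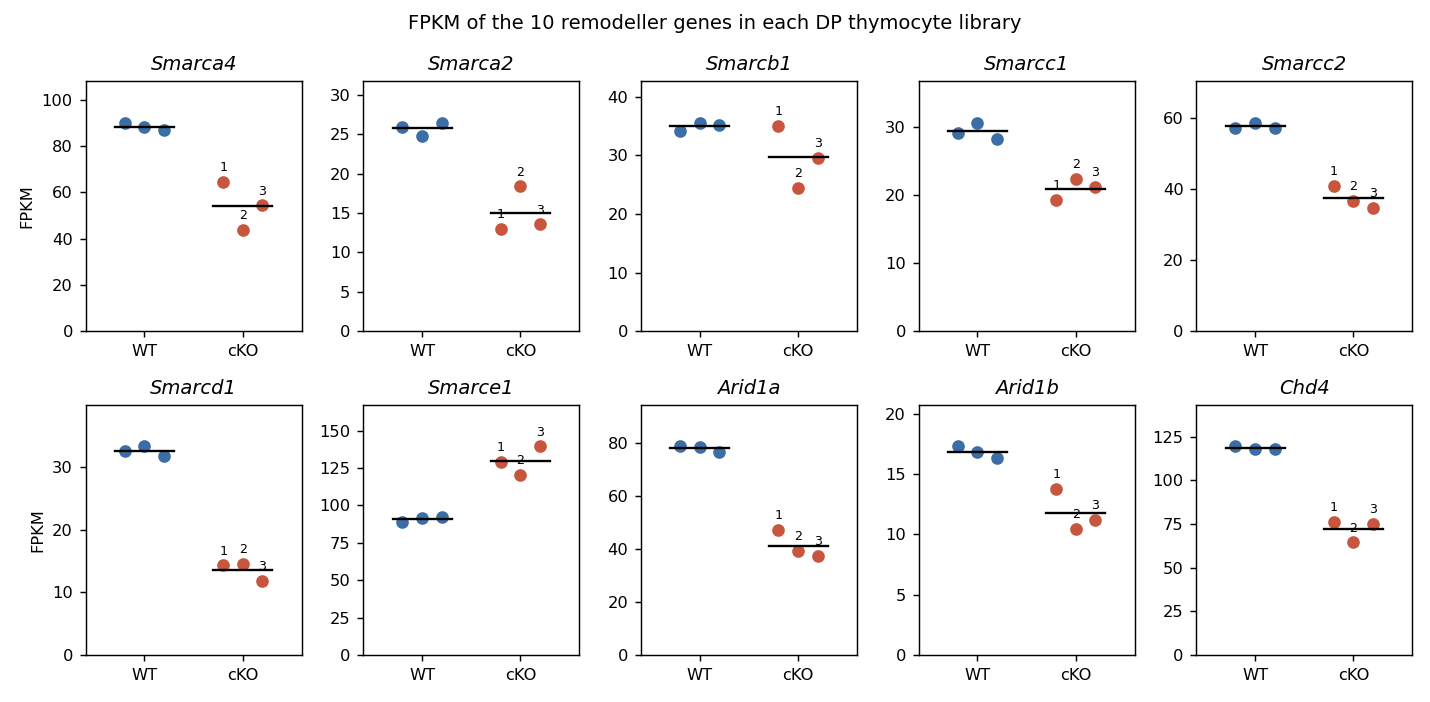
FPKM (y axis, from 0) of each of the 10 genes in the 3 WT (blue) and 3 cKO (red) libraries, with bars at the group means and cKO replicate numbers beside the points. In 8 panels all cKO points lie below the WT points, in the *Smarce1* panel all lie above, and in the *Smarcb1* panel cKO 1 at 35.0 lies among the WT points at 34.1 to 35.6.

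*Smarca4* (ENSMUSG00000032187), on chromosome 9 from 21616169 to 21704230 of GRCm38, encodes BRG1, the main ATPase of BAF in lymphoid cells. Its FPKM was 90.1, 88.1 and 87.0 in WT 1, 2 and 3 and 64.5, 43.8 and 54.3 in cKO 1, 2 and 3. All cKO libraries were low, with cKO 2 lowest, and the groups did not overlap. The cKO mean of 54.2 ± 10.4 (SD, n = 3) was 61.3% of the WT mean, a log2 change of -0.71 (standard error, SE, 0.14; adjusted p = 0.00329 by limma). *Smarca2* (ENSMUSG00000024921), on chromosome 19 from 26605050 to 26778322, encodes the alternative ATPase BRM and was the lower of the pair in every library. Its FPKM was 26.0, 24.8 and 26.5 in WT and 13.0, 18.4 and 13.6 in cKO, where cKO 2 was the highest and not the lowest. The mean was 15.0 ± 2.96 (SD, n = 3) in cKO, or 58.1% of WT, with a log2 change of -0.76 (SE 0.12, adjusted p = 0.00162). Both ATPase transcripts were called lower, but after correction for GC content and transcript length, described further on, *Smarca4* was at -0.13 and not called (adjusted p = 0.415) while *Smarca2* was at -0.53 (adjusted p = 0.0110). With WT averaged into 1 sample, the adjusted p was 0.0815 for *Smarca4* and 0.0588 for *Smarca2*.

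The ARID subunits bind DNA and define canonical BAF, and each complex holds one of them. *Arid1a* (ENSMUSG00000007880), on chromosome 4 from 133679008 to 133756769, reached FPKM values of 78.7, 78.6 and 76.6 in WT and of 47.3, 39.3 and 37.3 in cKO. Every cKO library was well below WT, and the mean of 41.3 ± 5.28 (SD, n = 3) was 52.9% of WT. The log2 fold change was -0.91 (SE 0.097, adjusted p = 0.000352), the second largest fall of the 10 genes, and it was called with WT averaged into 1 sample (adjusted p = 0.0373). Corrected for GC content and length, it was at -0.22 and still called (adjusted p = 0.0255). *Arid1b* (ENSMUSG00000069729), on chromosome 17 from 4994332 to 5347656, was expressed at a lower level, with an FPKM of 17.3, 16.9 and 16.4 in WT and of 13.8, 10.5 and 11.2 in cKO. The cKO libraries lay below WT without overlap. The mean was 11.8 ± 1.75 (SD, n = 3), 70.1% of WT, with a log2 change of -0.49 (SE 0.11, adjusted p = 0.00543). It was not called with WT averaged into 1 sample (adjusted p = 0.120) or after the correction, where it was at -0.058 (adjusted p = 0.506).

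Of the scaffold and core subunits, *Smarcd1* fell most. *Smarcd1* (ENSMUSG00000023018), on chromosome 15 from 99702129 to 99713991, encodes BAF60A, a subunit through which transcription factors contact the complex. Its FPKM was 32.6, 33.3 and 31.8 in WT and 14.3, 14.6 and 11.8 in cKO. The cKO libraries were close to each other and far below WT, at a mean of 13.5 ± 1.53 (SD, n = 3) or 41.6% of WT. With median-of-ratios scaling it was the only one of the 10 genes to fall at least 2-fold, with a log2 change of -1.21 (SE 0.088, adjusted p = 0.000122, and 0.0294 with WT averaged into 1 sample), as did 4.71% of all tested genes. Quantile normalization put *Arid1a* (-1.12) and *Chd4* (-1.03) past 2-fold too, and after correction for GC content and length *Smarcd1* was at -0.73. The same FPKM total moved the median of all tested genes to -0.45 and put 8 of the 10 genes past 2-fold. The share of all tested genes past 2-fold was not counted under these other settings. *Smarcd2*, its paralog and by FPKM the more abundant transcript, was at 190, 189 and 191 in WT and 163, 146 and 167 in cKO, a log2 change of -0.26 (adjusted p = 0.0230) that was 0.13 and not called after correction for GC content and length.

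The SMARCC proteins (BAF155 and BAF170) pair up to form the scaffold of BAF. *Smarcc2* (ENSMUSG00000025369), on chromosome 10 from 128459248 to 128490482, reached FPKM values of 57.2, 58.7 and 57.3 in WT and of 40.8, 36.7 and 34.7 in cKO. Its log2 fold change was -0.62 (SE 0.076, adjusted p = 0.000582), and the cKO mean of 37.4 ± 3.14 (SD, n = 3) was 64.8% of WT. *Smarcc1* (ENSMUSG00000032481), on chromosome 9 from 110117708 to 110240178, reached FPKM values of 29.2, 30.6 and 28.2 in WT and of 19.3, 22.3 and 21.2 in cKO. The smallest spread among cKO libraries relative to the mean was that of *Smarcc1* (7.24%), and the groups did not overlap. The log2 fold change was -0.47 (SE 0.072, adjusted p = 0.00128), from a cKO mean of 21.0 ± 1.52 (SD, n = 3).

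*Smarce1* was the only one of the 10 genes called higher, and *Smarcb1* the only one called in neither direction, with median-of-ratios scaling. *Smarcb1* (ENSMUSG00000000902), on chromosome 10 from 75896769 to 75921617, encodes the core subunit that docks BAF on the nucleosome. It reached FPKM values of 34.1, 35.6 and 35.1 in WT and of 35.0, 24.5 and 29.6 in cKO. Here cKO 1 was at the WT level, cKO 2 and 3 were below it, and the groups overlapped. The log2 fold change was -0.24 with a 95% interval of -0.54 to 0.053 (adjusted p = 0.126), so a fall of the size of *Smarcc1* lay within the interval. Without cKO 1 it was -0.37 and called (adjusted p = 0.0148), as were 29.5% of all genes in this direction. It was called lower under quantile normalization (-0.34, adjusted p = 0.0358) and with the same FPKM total (-0.79, adjusted p = 0.000476) as well, and its value of -0.20 after correction for GC content and length lay among those of the 8 genes that fell. *Smarce1* (ENSMUSG00000037935), on chromosome 11 from 99209047 to 99231017, encodes BAF57, an HMG-box subunit that binds DNA. Its FPKM was 89.1, 91.3 and 92.4 in WT and 129, 120 and 139 in cKO. All cKO libraries lay above all WT libraries, with a mean of 130 ± 9.54 (SD, n = 3) or 143% of WT. The log2 fold change was 0.50 (SE 0.077, adjusted p = 0.00130, and 0.103 with WT averaged into 1 sample). An equal FPKM total per library brought it to -0.054 (adjusted p = 0.487), against a median of -0.45 over all genes. Under quantile normalization *Smarce1* was at 0.14 (adjusted p = 0.0461), against a median of 0.029 over all genes.

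*Chd4* (ENSMUSG00000063870), on chromosome 6 from 125095981 to 125130591, encodes Mi-2β and had the highest WT level of the 10 genes. Its FPKM was 119, 118 and 118 in WT and 76.3, 64.4 and 74.9 in cKO. The WT values spanned 1.35% of their mean, and the cKO values all lay far below them. The cKO mean was 71.9 ± 6.52 (SD, n = 3), 60.7% of WT, with a log2 change of -0.72 (SE 0.085, adjusted p = 0.000497), and the adjusted p was 0.0510 with WT averaged into 1 sample.

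By WT FPKM, which is per length, *Chd4* at 118 stood first, followed by *Smarce1* (90.9), *Smarca4* (88.4), *Arid1a* (78.0), *Smarcc2* (57.7), *Smarcb1* (35.0), *Smarcd1* (32.6), *Smarcc1* (29.4), *Smarca2* (25.8) and *Arid1b* (16.8). Neighbouring WT values did not overlap between libraries except that *Smarce1* in WT 1 (89.1) lay below *Smarca4* in WT 1 (90.1). In cKO the first place belonged to *Smarce1* at 130, ahead of *Chd4* (71.9) and *Smarca4* (54.2), and the last to *Arid1b* (11.8), whose cKO 1 value of 13.8 lay above *Smarcd1* in cKO 3 (11.8). *Smarcd1* at 13.5 and *Smarca2* at 15.0 were neighbours in cKO and overlapped between libraries.

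The cKO libraries did not keep 1 order across the genes. The lowest value was in cKO 2 for 5 genes (*Smarca4*, *Smarcb1*, *Smarce1*, *Arid1b* and *Chd4*), in cKO 3 for 3 and in cKO 1 for 2. The highest was in cKO 1 for 6 genes, in cKO 2 for 3 (*Smarca2*, *Smarcc1* and *Smarcd1*) and in cKO 3 for *Smarce1*. The spread among cKO libraries was largest for *Smarca2* (an SD of 19.8% of the mean), *Smarca4* (19.2%) and *Smarcb1* (17.8%). The estimated fragments behind a value were at least 617 in every library, the smallest being for *Smarcd1*.

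Transcript length and base composition moved with the fold change and are given beside these results. Over 10241 tested genes with an annotated transcript, the log2 fold change fell with length (Spearman's rho -0.30) and with GC content (rho -0.33), where genes of 1 library share its preparation and are not independent. Of the 10 remodellers, 8 were longer than the median tested gene of 3003 nucleotides, up to *Arid1b* (11325) and *Arid1a* (8187), and 9 were above the median GC content of 50.0%, up to *Smarcd1* (57.2%). After each library was corrected for both, 6 genes were called lower and *Smarce1* higher, and the median log2 fold change was -0.23. The shares over all genes were then 25.1% and 32.0%.

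The correction divided the genes that had fallen. *Smarcd1* was at -0.73 (SE 0.072, adjusted p = 0.000568), *Smarca2* at -0.53 (adjusted p = 0.0110), *Chd4* at -0.35 (adjusted p = 0.00909), *Smarcc1* at -0.30 (adjusted p = 0.00875), *Smarcc2* at -0.25 (adjusted p = 0.0136) and *Arid1a* at -0.22 (adjusted p = 0.0255). *Smarca4* was at -0.13 with a 95% interval of -0.42 to 0.17 (adjusted p = 0.415) and *Arid1b* at -0.058 with an interval of -0.22 to 0.11 (adjusted p = 0.506), so neither gene was called any longer. *Smarce1* was at 0.54 (adjusted p = 0.00147), slightly above its uncorrected value. With the correction and the WT libraries counted as 1 sample, a combination chosen after seeing the data, 0 of the 10 genes were called in either direction, and 0.186% and 0.0586% of all genes were called lower and higher. The log2 fold changes of the 10 genes were there the same as with the correction alone. With the correction and a replicate block, also chosen after seeing the data, 5 were lower and 1 higher, against 23% and 29.3%.

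**Figure D2:**
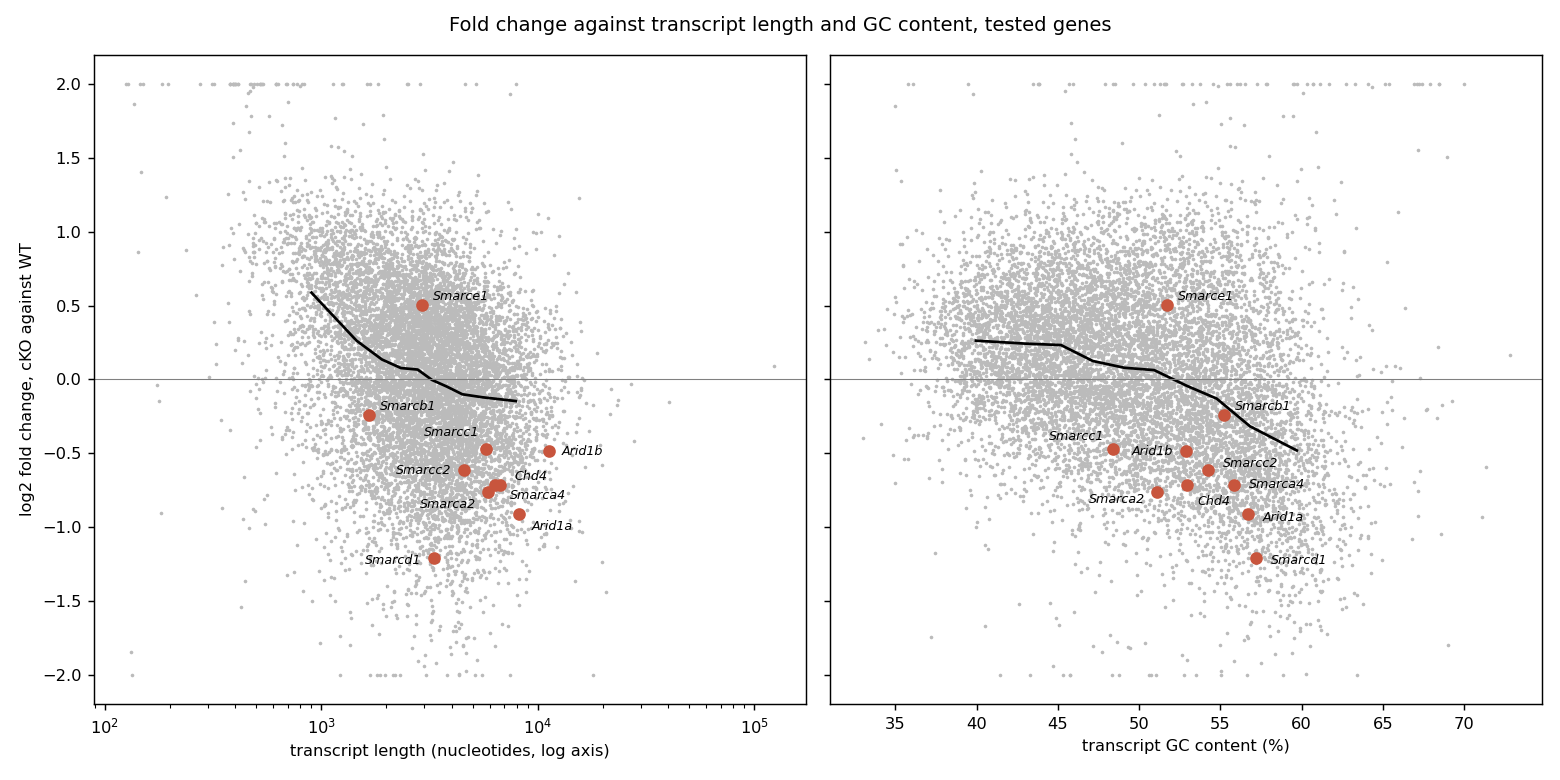
Log2 fold change (y axis) against transcript length (left, log axis, nucleotides) and transcript GC content (right, %) for 10241 tested genes (grey, values beyond 2 in either direction drawn at 2), with the 10 remodellers in red and a line through the medians of 10 bins of equal gene number. *Smarcd1* (-1.21) and *Smarca2* (-0.76) lie well below the line in both panels, and *Smarce1* (0.50) lies above it.

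**Figure D3:**
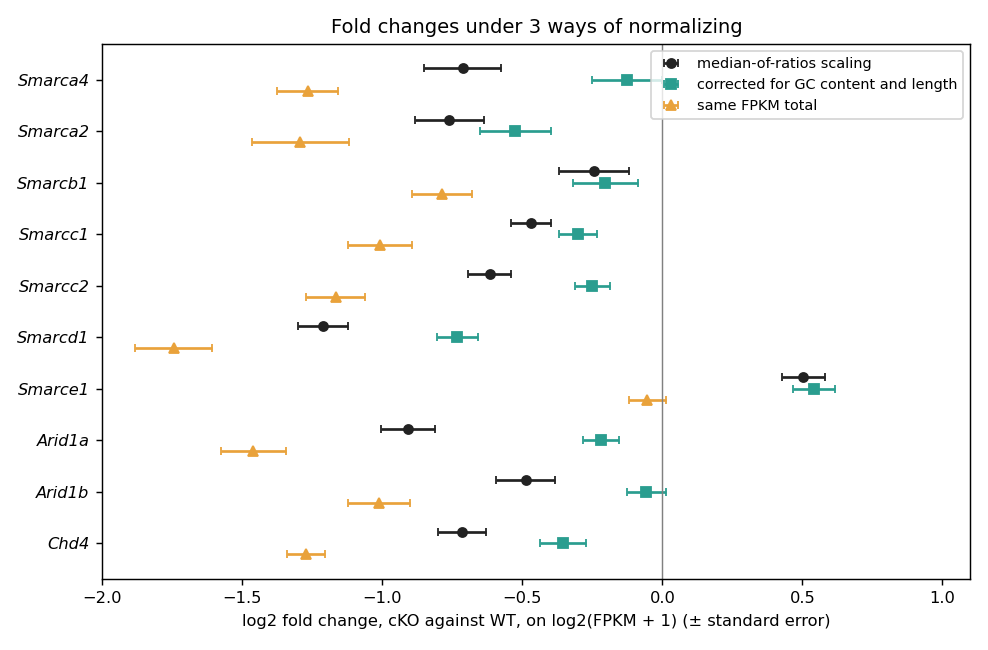
Log2 fold change (x axis, cKO against WT, points with standard errors) of each gene after median-of-ratios scaling (circles), after correction for GC content and length (squares) and with an equal FPKM total per library (triangles). *Smarca4* moves from -0.71 to -0.13 under the correction, *Smarcd1* from -1.21 to -0.73, and *Smarce1* from 0.50 to -0.054 under the same total.

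Alternative subunits were compared by their FPKM ratio within a library, which does not depend on the scaling between libraries. Of 5 ratios, the groups did not overlap for 2, and with 3 libraries against 3 the smallest two-sided p of the exact permutation test is 0.1. *Arid1a* to *Arid1b* was 4.55, 4.66 and 4.68 in WT and 3.43, 3.76 and 3.33 in cKO, lower in every cKO library. The difference on the log2 scale was -0.40 (SD of cKO 0.090, exact p = 0.1, adjusted p = 0.25 over the 5 ratios). *Chd4* to *Chd3*, its NuRD paralog, was 4.81, 4.89 and 4.84 in WT and 6.72, 6.10 and 8.40 in cKO, higher in every cKO library, with a log2 difference of 0.53 (SD of cKO 0.24, exact p = 0.1, adjusted p = 0.25). After correction for GC content and length these differences were -0.16 and 0.19.

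The groups overlapped for the other 3 ratios. *Smarca4* to *Smarca2* was 3.47, 3.55 and 3.29 in WT and 4.97, 2.38 and 4.01 in cKO, so 2 cKO libraries lay above WT and cKO 2 below it (log2 difference 0.077, exact p = 0.8, -0.15 without cKO 1, and 0.40 after correction for GC content and length). *Smarcc1* to *Smarcc2* was 0.510, 0.522 and 0.493 in WT and 0.473, 0.609 and 0.611 in cKO (log2 difference 0.14, exact p = 0.4). *Smarca4* to *Chd4*, the ATPases of BAF and of NuRD, was 0.755, 0.748 and 0.738 in WT and 0.846, 0.680 and 0.725 in cKO, around the same mean (log2 difference 0.00036, exact p = 1).

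**Figure D4:**
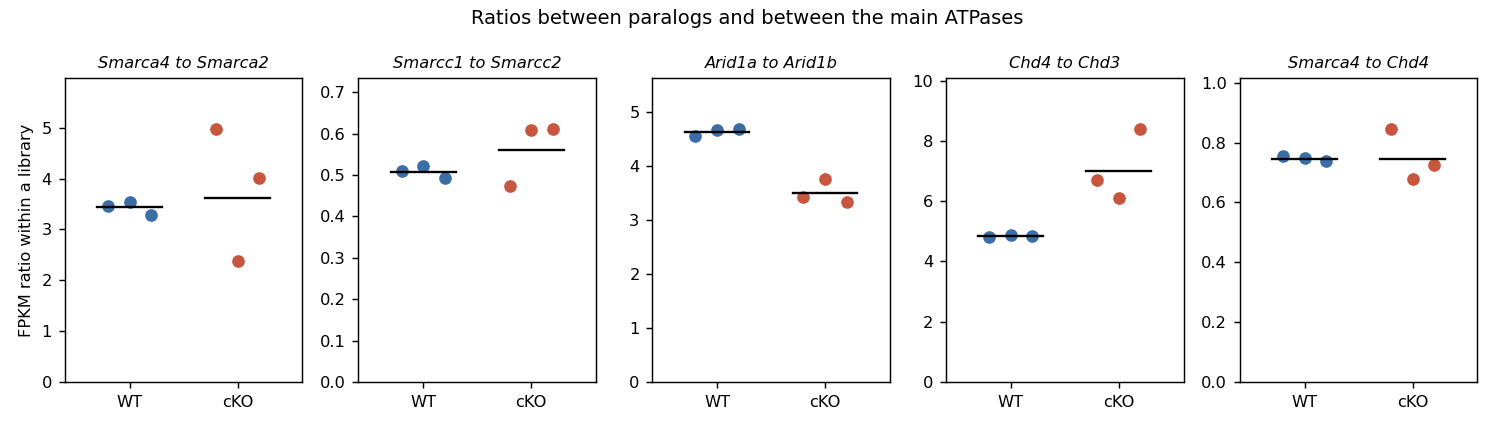
FPKM ratio within a library (y axis, from 0) for 5 pairs in the 3 WT (blue) and 3 cKO (red) libraries, with bars at the geometric means. The *Arid1a* to *Arid1b* points of cKO (3.33 to 3.76) lie below WT (4.55 to 4.68), the *Chd4* to *Chd3* points (6.10 to 8.40) lie above WT (4.81 to 4.89), and the other pairs overlap.

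The other subunits of BAF and of its relatives PBAF and ncBAF divided. Of 19 listed genes 15 were tested, with 7 lower and 5 higher, beside 29.8% and 35.8% of all tested genes. The other 3 were not called, and the median log2 fold change of the 15 genes was -0.21. The largest falls were of *Gltscr1* (*Bicra*), a defining subunit of ncBAF, from a mean of 15.0 FPKM to 5.49 ± 0.800 (SD, n = 3) with a log2 change of -1.31 (adjusted p = 0.000142), of *Bcl7a* (-0.76, adjusted p = 0.000441) and of *Ss18l1* (-0.71, adjusted p = 0.00278). The largest rises were of *Actl6a*, the actin-related subunit BAF53A, from 47.4 to 81.8 ± 5.53 (SD, n = 3) with a log2 change of 0.77 (adjusted p = 0.000237), of *Brd7*, a bromodomain subunit of PBAF (0.54, adjusted p = 0.000861), and of *Brd9*, its counterpart in ncBAF (0.24, adjusted p = 0.0200). After correction for GC content and length *Gltscr1* was at -0.52, *Bcl7a* at -0.58 and *Ss18l1* at -0.60, all still called lower. *Actl6a* (0.58) and *Brd7* (0.53) were still called higher. *Brd9* was not called after this correction or under quantile normalization (0.084). Under the same FPKM total *Actl6a* was at 0.22, *Brd7* at -0.0097 and *Brd9* at -0.31, where it was called lower (adjusted p = 0.0442). *Actl6b*, *Dpf1*, *Dpf3* and *Smarcd3*, subunits of neural and muscle forms, did not pass the filter. They reached no more than 0.114, 0.712, 0.226 and 0.0634 FPKM in any library.

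In NuRD the subunits around *Chd4* divided as well. Of 14 listed genes 13 were tested, with 6 lower and 5 higher, beside 29.8% and 35.8% of all tested genes. The other 2 were not called, and the median log2 fold change of the 13 genes was -0.013. *Chd5* stayed at or below 0.122 FPKM. *Chd3* fell from a mean of 24.4 to 10.3 ± 1.24 (SD, n = 3), a log2 change of -1.18 (adjusted p = 0.000146). *Mta1*, a scaffold of the deacetylase module, fell from 43.8 to 20.3 ± 4.28 (SD, n = 3) with a log2 change of -1.09 (adjusted p = 0.000643), and *Mbd3*, which tethers the remodelling and deacetylase modules, was at -0.59 (adjusted p = 0.000833). The histone chaperone *Rbbp7* rose from 71.7 to 129 ± 11.6 (SD, n = 3), a log2 change of 0.83 (adjusted p = 0.000321), beside *Hdac2* (0.69, adjusted p = 0.000448) and *Cdk2ap1* (0.69, adjusted p = 0.000300). These 3 higher genes were at 0.27, 0.13 and 0.13 under the same FPKM total, where *Rbbp7* alone of them was called. After correction for GC content and length *Chd3* was at -0.55, *Mta1* at -0.66 and *Mbd3* at -0.27, all still called lower. *Rbbp7* (0.54), *Hdac2* (0.46) and *Cdk2ap1* (0.72) were still called higher there.

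Outside BAF and NuRD, the ISWI, INO80, SRCAP and other CHD and SNF2 remodellers formed a list of 31 that shares *Actl6a* with BAF. Of 28 tested genes 6 were lower, 12 higher and 10 not called, beside 29.8% lower and 35.8% higher over all tested genes. The median log2 fold change of the 28 genes was 0.031. *Srcap* (-1.13, adjusted p = 0.000302), *Baz2a* (-0.91, adjusted p = 0.000576) and *Ep400* (-0.67, adjusted p = 0.000439) fell most. After correction for GC content and length they were at -0.61, -0.59 and -0.27, all still called lower. *Hells*, a SNF2 helicase of DNA methylation (1.14, adjusted p = 0.000111), *Ruvbl1*, a helicase of INO80 and SRCAP (1.11, adjusted p = 0.000300), and *Pole3*, a histone-fold subunit of CHRAC (1.04, adjusted p = 0.00151), rose most and were higher under the same FPKM total too, at 0.60, 0.57 and 0.49. After the correction *Hells*, *Ruvbl1* and *Pole3* were at 1.05, 0.94 and 0.77, all still called higher. *Smarca1*, *Cecr2* and *Chd7* did not pass the filter, at 0, at most 0.776 and at most 0.609 FPKM.

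**Figure D5:**
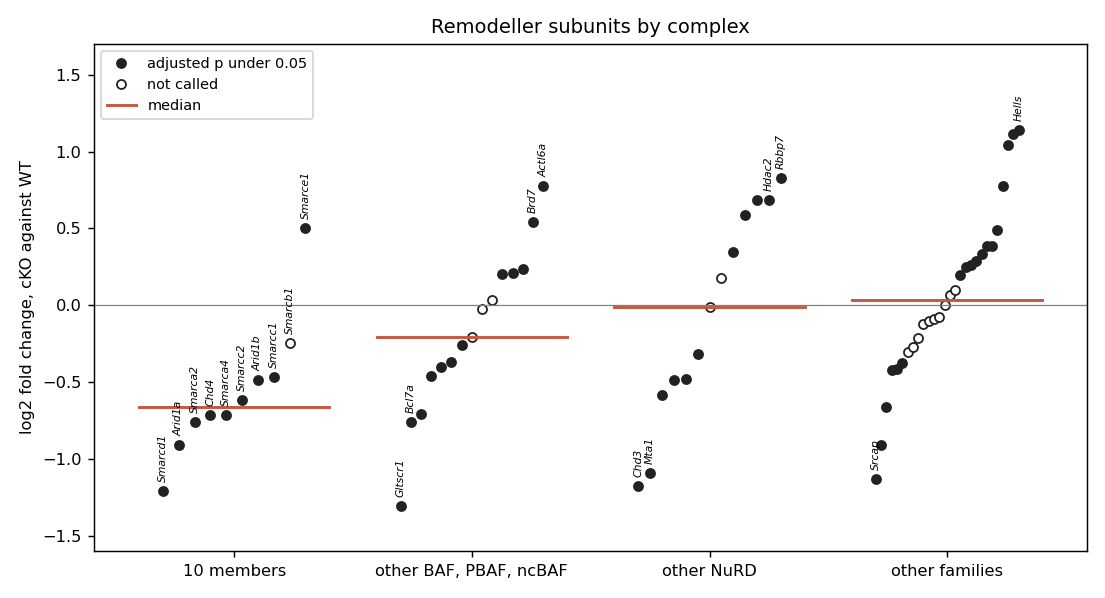
Log2 fold change (y axis, cKO against WT) of each tested gene, sorted within the 10 remodellers and 3 further lists, with filled points at an adjusted p under 0.05 and bars at the medians. The medians are -0.67, -0.21, -0.013 and 0.031 from left to right, and in the first list *Smarce1* (0.50) is the only point above 0 and *Smarcb1* (-0.24) the only open one.

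Among genes that these remodellers are known to act on or with in thymocytes, *Ikzf1*, which encodes Ikaros, a partner of Mi-2β, was at 184, 181 and 185 in WT and 131, 146 and 146 in cKO (log2 fold change -0.37, adjusted p = 0.00339). *Runx1*, which binds the *Cd4* silencer, was at a mean of 32.3 in WT and 32.7 ± 4.08 (SD, n = 3) in cKO (log2 fold change 0.0096, adjusted p = 0.935). *Cd4* had a log2 change of 0.40 (adjusted p = 0.0175) and *Cd8a* of 0.68 (adjusted p = 0.00134), but quantile normalization gave -0.26 and -0.040. Of the 12 genes of this list, 7 were called lower and 4 higher, beside 29.8% and 35.8% of all tested genes, with a median of -0.42 and a range of -1.13 to 0.84. The counts were 8 and 0 under quantile normalization, against 29.9% and 33.3% of all tested genes. With the same FPKM total they were 9 and 1, against 59.9% and 8.74%. With WT averaged into 1 sample the median was the same and fewer genes were called. After correction for GC content and length the counts were 5 and 4, against 25.1% and 32.0% of all genes, with a median of -0.14.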

How the data were processed

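Poly(A)-enriched, strand-specific mRNA-seq libraries of sorted DP thymocytes from 3 WT and 3 cKO samples were analysed. After trimming with fastx trimmer and TopHat mapping on mm10, the authors deposited FPKM values calculated by Cufflinks, 1 per gene symbol; versions, annotation and strand setting are not given in the sources used here. The authors tested counts with DESeq2, which FPKM values do not allow. FPKM values are affected by transcript length, base composition and the library total, and sum all isoforms of a gene.

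Libraries were divided by median-of-ratios size factors (1.00 to 1.01), filtered (3 or more libraries at an FPKM of 1) and fitted as log2(FPKM + 1) with limma 3.58.1 (eBayes with trend) in R 4.3.3, adjusted over all 10326 genes. Ratios used exact permutation tests (scipy 1.17.1, Python 3.11.15). Of the symbols, 22110 matched GENCODE vM21 (GRCm38, the assembly of mm10) directly and 646 by RefSeq synonym. Length and GC content are of the longest coding transcript, corrected by natural splines with 5 degrees of freedom each. Depth was estimated at 2605 single-transcript genes with an assumed fragment length of 200, and 70.7% to 77.2% of low values lay within 0.1 fragment of a step. On simulated data, limma called 87 of 100 genes changed 2-fold, 100 of 100 changed 4-fold and 12 of 10126 unchanged genes. How often unchanged genes are called in the sequenced libraries, whose spread differed between WT and cKO, was not tested.

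The 10 members, the subunit lists and the tests were chosen with earlier results of these data known. All 10 members are named, and of each further list up to 3 called genes per direction with the largest change, genes of the ratios and genes below the filter, and of the thymocyte partners *Cd4*, *Cd8a*, *Ikzf1* and *Runx1*, whatever their values; *Smarcd2* was added after its values were seen. The NRF1 core was shortened after a form of 10 bases, with G before and C after it, had matched 0 of the 9 windows. Single levels of some marker genes are not reported here.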

Additional observations from a re-analysis of the deposited data

How the results depend on the processing

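Log2 fold changes of the 10 members kept their direction in every alternative run except for *Smarce1*, which was at -0.054 with an equal FPKM total per library. No scaling, a pseudocount of 0.1, no filter, no trend and the replicate block changed the call of 0 members. With each library left out in turn, 8 to 9 members were called lower and 1 higher. Without cKO 1, where 9 members were lower, 29.5% of all tested genes were called lower. The shares without each other library are not given here. With WT averaged into 1 sample, the counts of genes lower and higher were 2 and 0 for the members, 2 and 1 for other BAF subunits, 2 and 1 for other NuRD subunits and 3 and 4 for other families. With the same FPKM total they were 9 and 0, 13 and 1, 9 and 1, and 19 and 4 in the same order. Over all tested genes 59.9% and 8.74% were called there. Under quantile normalization they were 9 and 1, 9 and 2, 7 and 3, and 10 and 9, beside 29.9% and 33.3% of all genes. After correction for GC content and length they were 6 and 1, 5 and 3, 4 and 4, and 4 and 12. The shares over all genes were 25.1% and 32.0% with this correction, and 23% and 29.3% with a replicate block added to it. In settings chosen after seeing the data, this correction with WT counted as 1 sample gave 0 in each list and direction, and with the replicate block 5 and 1, 4 and 2, 3 and 4, and 3 and 12, *Arid1a* being lost from the members (adjusted p = 0.0628). Same-numbered WT and cKO libraries did not deviate together (correlations of their deviations from the group means of -0.022, 0.038 and 0.031). The WT libraries differed by only 1.47 to 1.58 times counting noise, so this check could hardly have shown pairs. The numbers were not taken as pairs in the main test. The replicate block alone gave 6 and 2 for other BAF subunits and moved no other count by over 1.5 times. Leaving out each library, other BAF subunits called higher ranged from 2 to 5, the low counts being without a WT library (3, 2 and 2 without WT 1, 2 and 3).

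Of the ratios, the log2 difference of *Smarca4* to *Smarca2* was 0.40 after correction for GC content and length, that of *Smarcc1* to *Smarcc2* -0.052, that of *Arid1a* to *Arid1b* -0.16, that of *Chd4* to *Chd3* 0.19 and that of *Smarca4* to *Chd4* 0.23. With each library left out, *Smarca4* to *Smarca2* ranged from -0.15 to 0.38 and *Smarca4* to *Chd4* from -0.089 to 0.068. The cause of these changes was not tested. Each member rested on at least 617 estimated fragments, and the part of depth in these values was not tested.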
